A study of Mus musculus with 6 samples.

Results

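The miR-23a/27a/24-2 and miR-23b/27b/24-1 clusters are a pair of paralogous loci, each of which gives 3 hairpins from a single transcript. Every hairpin can release a miRNA from its 5′ arm (5p) and from its 3′ arm (3p), and one arm is usually kept while the other is degraded. miR-23a-3p is known to repress Fbxo32 (atrogin-1) and Trim63 (MuRF1), the ubiquitin ligases that mark muscle proteins for breakdown, and the miR-27 forms are known to repress Mstn (myostatin), which limits muscle growth, and Foxo1, which drives atrophy genes. The clusters are abundant in endothelial cells, and miR-23a-3p is a common reference for judging red-cell RNA in serum. The 9 members described here were chosen by name from the 1982 miRNAs counted in the series, with earlier results of these data known.

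The miRNAs were counted in exosomes, small vesicles pelleted from serum by ultracentrifugation, of male C57BL/6 mice aged 3 months. Acu/LFES mice (n = 3, mice 4 to 6) had acupuncture needles in a hindlimb and low frequency electrical stimulation for 30 min, once. Sham mice (n = 3, mice 1 to 3) had needles connected to the device beside these points without current. Each mouse gave its own library, and the time from treatment to the taking of serum for sequencing is not given in the sources used here. Less of a miRNA per vesicle and fewer vesicles of one source cannot be told apart.

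The mature sequences show which members can be told apart by reads, and they are given 5′ to 3′ from RefSeq on GRCm38.p6, which held 8 of the 9 members, all but miR-23b-3p. Capitals mark the seed, bases 2 to 8, with which a miRNA pairs to its targets. miR-23a-3p (chr8:84208563-84208583) and miR-27a-3p (chr8:84208727-84208747) come from the first cluster, and miR-27b-3p (chr13:63300760-63300780) from the second.
mmu-miR-23a-3p: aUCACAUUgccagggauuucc
mmu-miR-27a-3p: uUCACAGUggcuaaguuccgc
mmu-miR-27b-3p: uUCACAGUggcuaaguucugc
mmu-miR-24-3p: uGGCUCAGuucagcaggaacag
miR-27a-3p and miR-27b-3p share their seed and differ at a single base, C19U, with the base of miR-27a-3p first and positions counted from the 5′ end. Their reads could be exchanged wherever the counting allowed a mismatch. miR-24-3p has the same sequence in both clusters (chr8:84208875-84208896 and chr13:63301251-63301272), so its count cannot be divided between them.
The 5p members differ more, which lets their reads be assigned to a locus.
mmu-miR-27a-5p: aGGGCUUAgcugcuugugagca
mmu-miR-27b-5p: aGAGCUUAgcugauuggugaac
mmu-miR-23b-5p: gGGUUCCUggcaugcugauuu
mmu-miR-24-2-5p: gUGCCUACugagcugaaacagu
miR-27a-5p and miR-27b-5p differ at 8 of 22 positions, and G3A lies in the seed, so unlike the 3p forms they do not share one.

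In GRCm38 the first cluster spans 404 bases on the plus strand (chr8:84208518-84208921). By the GENCODE M21 annotation no gene overlaps Mir23a or Mir27a, and Mir24-2 touches the start of the long noncoding RNA Gm26532 and lies opposite Mir3074-2. The second cluster spans 792 bases on the plus strand (chr13:63300484-63301275) inside the protein-coding gene 2010111I01Rik, in an intron for Mir23b and overlapping an annotated exon for Mir27b and Mir24-1. It also lies opposite an intron of Fancc.

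Library totals ranged from 391708 to 658833 counts in sham mice and from 517421 to 1504137 in Acu/LFES mice. miR-486a-5p and miR-486b-5p have equal deposited counts and are listed here as red-cell markers. The first is also listed among miRNAs linked to muscle atrophy or growth signalling, and the cell source of these reads was not tested. Together these miRNAs took between 61.7% and 74.0% of the counts in 5 mice and 29.2% in Acu/LFES mouse 6. Levels are therefore given as CPM, the count divided by the library size in units of 1e6 and by its TMM factor, which was 2.12 in mouse 6 and from 0.65 to 1.11 in the others. Of the 9 members, 6 had enough counts to be tested, among 259 miRNAs in all.

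The member with the most reads was mmu-miR-24-3p, followed by miR-27b-3p, miR-23a-3p, miR-27a-3p, miR-23b-3p and miR-24-2-5p, and this order was found in 6 of 6 mice. The median ratio of each to the next was 4.92, 1.37, 1.43, 3.72 and 4.05. Neighbours were close in sham mouse 2, where miR-27b-3p exceeded miR-23a-3p by a factor of only 1.02 and miR-23a-3p exceeded miR-27a-3p by 1.08. The order is one of reads of similar length and not of molecules, since small RNAs differ in how well they are captured in a library. The 5 3p members gave between 97.8% and 99.6% of the members' reads in every mouse.

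**Figure D1:**
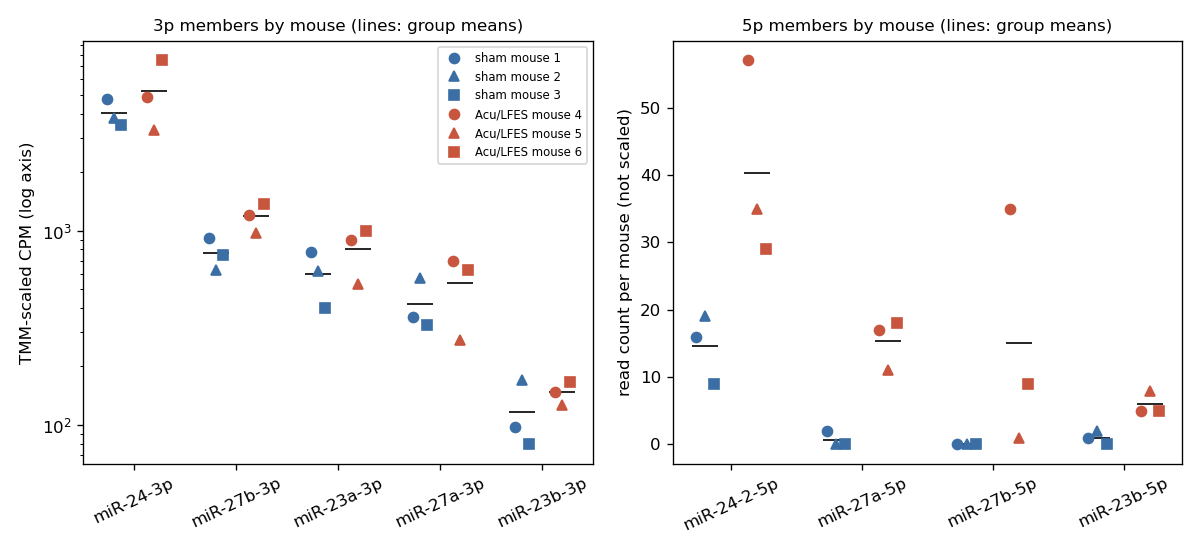
TMM-scaled CPM (log axis) of the 5 3p members (left) and unscaled read counts of the 4 5p members (right), with mice as points and group means (n = 3) as lines. For miR-27b-3p the Acu/LFES mice, from 969 CPM, lie above the sham mice, which reach 914 CPM, and the groups overlap for the other 3p members.

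mmu-miR-27b-3p was the 3p member with the clearest gap between the groups. Its level was 914, 628 and 750 CPM in sham mice 1, 2 and 3 and 1206, 969 and 1378 CPM in Acu/LFES mice 4, 5 and 6. All 3 Acu/LFES mice were above all 3 sham mice, although mouse 5 exceeded sham mouse 1 only slightly. The means were 764 ± 143.7 and 1184 ± 205 CPM (SD, n = 3 each), and edgeR gave a log2 fold change of 0.63 and a standard error (SE) of 0.25 (quasi-likelihood test of edgeR, unadjusted p = 0.0325, Benjamini-Hochberg adjusted p = 0.518). The difference did not pass the adjusted threshold. Groups that did not overlap in this direction were found for 8.88% of all miRNAs tested and in the opposite direction for 8.11%, and an unadjusted p under 0.05 with a higher level for 5.79%.

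mmu-miR-23b-3p, which is made from the same transcript as miR-27b-3p, was the least abundant 3p member. It had 98.0, 170 and 79.3 CPM under sham treatment, against 148, 127 and 167 CPM under Acu/LFES, from counts between 24 and 248. Sham mouse 2 was higher than every Acu/LFES mouse, so the groups overlapped. The log2 fold change was 0.35 with an SE of 0.47 (edgeR, Benjamini-Hochberg adjusted p = 0.857).

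In the other cluster, mmu-miR-23a-3p had 778, 618 and 400 CPM under sham treatment, against 897, 528 and 993 CPM under Acu/LFES. Acu/LFES mouse 5 lay below sham mice 1 and 2, and mice 4 and 6 lay above all sham mice. The log2 fold change was 0.43 with an SE of 0.33 (edgeR, Benjamini-Hochberg adjusted p = 0.786). mmu-miR-27a-3p had 359, 572 and 327 CPM under sham treatment, against 701, 274 and 631 CPM under Acu/LFES. Mouse 5 had the lowest value of all 6 mice, while mice 4 and 6 had the highest. The log2 fold change was 0.36 with an SE of 0.39 (edgeR, Benjamini-Hochberg adjusted p = 0.799).

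mmu-miR-24-3p, the product of both clusters, had 4753, 3793 and 3483 CPM under sham treatment, against 4872, 3298 and 7516 CPM under Acu/LFES. Mouse 5 was again the lowest and mouse 6 the highest of the 6. The means were 4010 ± 662 and 5229 ± 2131 CPM (SD, n = 3 each), and edgeR gave a log2 fold change of 0.38 with an SE of 0.31 (edgeR, Benjamini-Hochberg adjusted p = 0.786). Without mouse 6 the fold change was 0.057, and without mouse 5 it was 0.66, on the log2 scale. The coefficient of variation under Acu/LFES was 40.8%, against 16.5% in the sham mice.

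By edgeR's quasi-likelihood test 0 of the 6 tested members had an adjusted p under 0.05, against 0.0% of all miRNAs tested. Before adjustment 1 passed 0.05 as higher in Acu/LFES and 0 passed it as lower, the latter against 3.09% of all miRNAs tested. DESeq2's Wald test called 0 of the 6 members at an adjusted p under 0.05, against 3.47% of all miRNAs (9 of 259). It gave no adjusted p to miR-24-2-5p, so this member could not be called. Before adjustment the Wald test called 1 member as higher, against 6.56% of all miRNAs. All 6 fitted fold changes were above 0, as were 52.9% of all miRNAs tested. Their median on the log2 scale was 0.40, beside 0.05 for all miRNAs, but without the filter on low counts the median of all 9 members, 0.49, lay below that of all miRNAs, 0.68. How many of the 6 were higher at an unadjusted p under 0.05 changed when single mice were left out. Without Acu/LFES mouse 5 there were 3, when miR-24-3p and miR-27a-3p joined miR-27b-3p, beside 7.84% of all miRNAs in that fit. Without sham mouse 1 miR-27b-3p alone passed, beside 13.5% of all miRNAs. There were 0 without sham mouse 2 (6.80% of all miRNAs in that fit), sham mouse 3 (4.82%), Acu/LFES mouse 4 (5.21%) or Acu/LFES mouse 6 (4.80%).

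Because the a and b forms may share reads, their counts were also added before the test. The sum of miR-27a-3p and miR-27b-3p had a log2 fold change of 0.53 (SE 0.25) and that of miR-23a-3p and miR-23b-3p 0.41 (SE 0.31). The Benjamini-Hochberg adjusted p was 0.552 and 0.783 by edgeR. The sum of all 5 3p members had a log2 fold change of 0.44 with an SE of 0.29 (edgeR, Benjamini-Hochberg adjusted p = 0.729), which became 0.18 without mouse 6 and 0.71 without mouse 5. With total counts in place of TMM factors all fold changes of the members were larger, as was the median of all miRNAs, which rose to 0.71. Relative to that median, miR-27b-3p stood at 0.58 with TMM factors and at 0.61 with total counts, on the log2 scale.

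**Figure D2:**
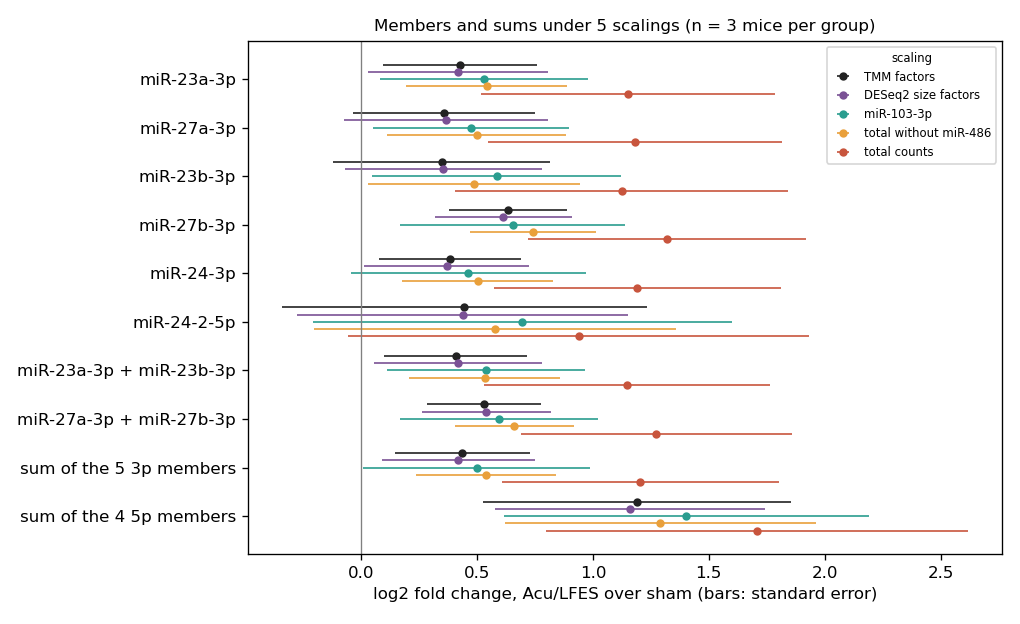
Log2 fold changes of Acu/LFES over sham (x axis) for the 6 tested members and 4 sums of members (y axis) under 5 scalings, with standard errors as bars (n = 3 mice per group). With TMM factors miR-27b-3p stands at 0.63, total counts move it to 1.32, and every point lies to the right of 0.

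Ratios within a library need no scaling and show whether the clusters or their members moved apart. The ratio of miR-23a-3p plus miR-27a-3p to miR-23b-3p plus miR-27b-3p, which sets the first cluster against the second, was 1.12, 1.49 and 0.88 under sham treatment, against 1.18, 0.73 and 1.05 under Acu/LFES. These 3p members thus had similar numbers of reads from each cluster, as the counting assigned them. miR-24-3p, which gave 61.7% to 70.0% of the members' reads, cannot be divided between the clusters and was left out. The groups overlapped, with log2 means of 0.18 ± 0.38 and -0.05 ± 0.36 (SD, 3 mice each, two-sided exact permutation test, p = 0.5, where 0.1 is the smallest p that 3 mice against 3 allow). The log2 ratio of miR-23a-3p to miR-23b-3p was 2.38 ± 0.57 and 2.40 ± 0.31, and that of miR-27a-3p to miR-27b-3p was -0.89 ± 0.66 and -1.24 ± 0.53, in sham and Acu/LFES mice. The a form was thus the larger of the miR-23 pair and the b form the larger of the miR-27 pair in each mouse. Neither ratio separated the groups (exact permutation tests, p = 1.0 and p = 0.6), so the gap of miR-27b-3p was not shown to differ from that of miR-27a-3p. In all, 12 ratios were compared, and the smallest p adjusted over them by the Benjamini-Hochberg method was 0.6.

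miR-24-3p exceeded the sum of miR-23a-3p and miR-23b-3p by a factor of 4.81 to 7.25 in sham mice and 4.66 to 6.48 in Acu/LFES mice. It exceeded the sum of miR-27a-3p and miR-27b-3p by 3.16 to 3.73 and 2.55 to 3.74. Neither of these ratios set the groups apart (exact permutation tests, p = 0.6 and p = 0.4). The ratio of the red-cell miRNA miR-451a to miR-23a-3p was 0.89, 2.10 and 2.84 under sham treatment, against 2.12, 2.10 and 0.95 under Acu/LFES. Sham mouse 1 and Acu/LFES mouse 6 had the lowest values, so this ratio did not sort the mice by treatment (exact permutation test, p = 1.0). The denominator, miR-23a-3p, is itself a member and ranged from 400 to 993 CPM. The ratio is therefore not a measure of red-cell RNA independent of the members.

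**Figure D3:**
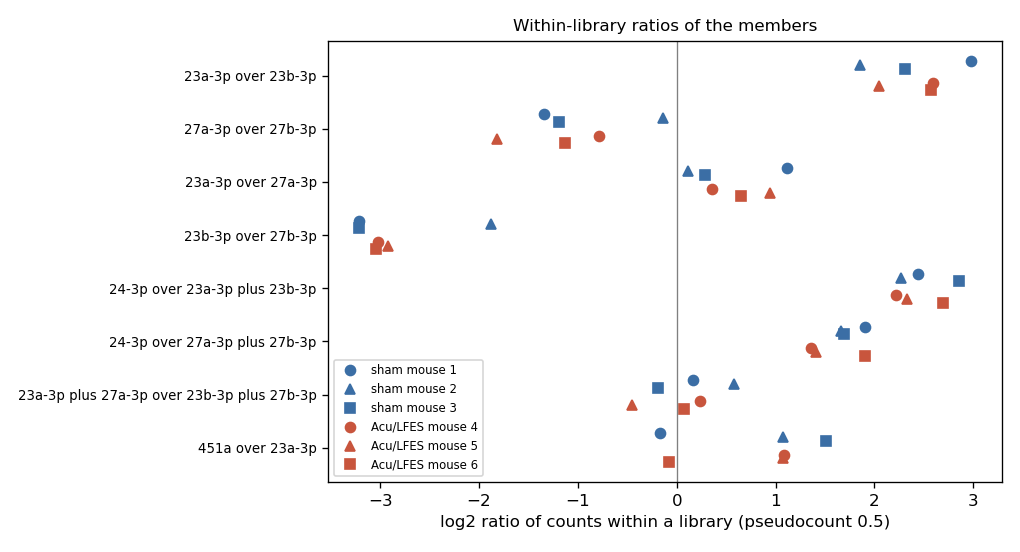
Log2 ratio of counts within each library (x axis) for 8 of the 12 ratios of members (y axis), with a pseudocount of 0.5, where points are mice, blue for sham and red for Acu/LFES. The groups overlap in each ratio shown, and sham mouse 2 is the highest in the ratios of miR-27a-3p and miR-23b-3p to miR-27b-3p.

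Among the 5p members, miR-27a-5p and miR-27b-5p were found almost only in Acu/LFES mice, at low counts. mmu-miR-27a-5p had 2, 0 and 0 counts in sham mice 1, 2 and 3 and 17, 11 and 18 counts in Acu/LFES mice 4, 5 and 6. Over the pooled, TMM-scaled libraries this is a ratio of 10.1, with an exact 95% interval from 2.64 to 85.8 that covers counting error only and not the spread between mice. Without sham mouse 1 the sham count was 0, and the pooled level was at least 3.45-fold higher against 3 counts. mmu-miR-27b-5p had 0 counts in each sham mouse and 35, 1 and 9 counts under Acu/LFES. It was at least 6.58-fold higher over the pooled libraries when the sham group is set to 3 counts, or 2.11 CPM, but 35 of its 45 counts were in mouse 4. The bound was 3.01-fold without mouse 4 and 3.38-fold without sham mouse 1. Mouse 5, at 2.08 CPM, was under the 3-count limit of each sham mouse, which lay between 4.32 and 9.91 CPM. Both members had too few counts for the default filter. They entered fits without a filter and, through their Acu/LFES counts, some fits with a mouse left out, and those p-values are not read as support. Of the miRNAs with a count that were not tested, 5.32% had all Acu/LFES mice above all sham mice. With miR-27b-3p, 3 of the 9 members had this order, beside 6.29% of the 954 miRNAs with a count. For miR-27b-5p the order is not established, because mouse 5 lay under the limits of the sham mice. The count is therefore not read as a result about the members.

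Library depth limits whether a rare arm is seen, so the 5p reads were also set against the 3p reads of the same hairpin. miR-27a-5p was 0.80% of the reads of both arms in sham mouse 1 (2 of 251, exact 95% interval 0.097 to 2.85%). It was 0 of 245 in sham mouse 2 and 0 of 99 in sham mouse 3, which allow shares of up to 1.22% and 3.03%. In Acu/LFES mice 4, 5 and 6 it was 1.43%, 7.69% and 2.54%, with exact 95% intervals of 0.84 to 2.28%, 3.90 to 13.3% and 1.51 to 3.98%. Mouse 5 lay above the upper limit of each sham mouse, and mice 4 and 6 did not exceed those of sham mice 1 and 3. By exact 95% intervals the upper limits of sham mice 2 and 3 were 1.49% and 3.66%, and mouse 4 did not exceed the former either. The log2 ratio of miR-27a-3p to miR-27a-5p fell by 2.80 between the groups with a pseudocount of 0.5 and by 2.10 with a pseudocount of 1 (exact permutation test, p = 0.1 for both, and 0.6 after adjustment over the 12 ratios with the first).

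For miR-27b-5p the Acu/LFES shares were 1.71%, 0.21% and 0.59% of both arms. The sham mice had 0 of 634, 0 of 269 and 0 of 227 reads, which allow up to 0.47%, 1.12% and 1.32%. Only mouse 4 was above all of these limits, and mouse 5, with a single read, was below them all. A difference in the use of this arm was not detectable at this depth in mice 5 and 6. The log2 ratio of miR-27b-3p to miR-27b-5p fell by 2.26 with a pseudocount of 0.5 (exact permutation test, p = 0.1) and by 1.44 with a pseudocount of 1 (p = 0.2), so its size rests on the pseudocount.

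For the other 5p members the groups overlapped in CPM. mmu-miR-24-2-5p, the 5p member with the most reads, had 16, 19 and 9 counts under sham treatment, against 57, 35 and 29 under Acu/LFES. In CPM the groups overlapped, at 23.1, 44.3 and 29.7 against 34.1, 72.8 and 26.5, and the log2 fold change was 0.45 with an SE of 0.79 (edgeR, Benjamini-Hochberg adjusted p = 0.911). Its share of both arms was highest in Acu/LFES mouse 5, at 2.16%, and lowest in Acu/LFES mouse 6, at 0.35%. mmu-miR-23b-5p had 1, 2 and 0 counts under sham treatment, against 5, 8 and 5 under Acu/LFES, a pooled ratio of 2.63 with an exact 95% interval from 0.77 to 14.0. This interval also holds the 10.1 of miR-27a-5p, so these counts cannot tell whether miR-23b-5p differed from it. Mouse 5 again had the highest share, with 11.6% of both arms. The sum of the 4 5p members had a log2 fold change of 1.19 with an SE of 0.66 (edgeR, Benjamini-Hochberg adjusted p = 0.610).

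**Figure D4:**
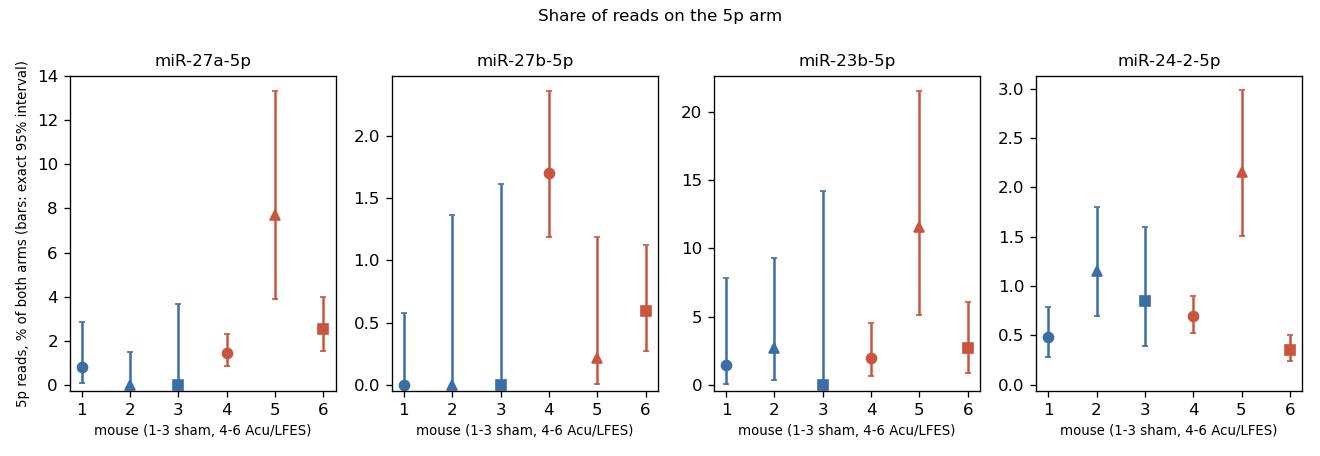
Reads of the 5p arm as a percent of the reads of both arms of the same hairpin (y axes, each with its own scale) in mice 1 to 3 (sham, blue) and 4 to 6 (Acu/LFES, red), with exact 95% intervals. Acu/LFES mouse 5 has the highest share for miR-27a-5p (7.69%), miR-23b-5p (11.6%) and miR-24-2-5p (2.16%), and mouse 4 for miR-27b-5p (1.71%).

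Together the 9 members took 0.77%, 0.38% and 0.39% of all counts under sham treatment, against 0.88%, 0.40% and 2.27% under Acu/LFES. Mouse 6 stood apart, and sham mouse 1 was close to mouse 4. The groups were not separated, with means of 0.51 ± 0.22% and 1.19 ± 0.97% (SD, n = 3 each, two-sided exact permutation test, p = 0.2). Without mouse 6 the difference between the means was 0.13 percentage points in place of 0.67, and without mouse 5 it was 1.06. Over totals that omit both miR-486 rows, the shares were 2.01%, 1.46% and 1.36% under sham treatment, against 2.30%, 1.53% and 3.21% under Acu/LFES (p = 0.2 in the same exact test). Sham mice 2 and 3 and Acu/LFES mouse 5, the mice in which these rows took between 71.2% and 74.0% of counts, had the 3 lowest shares of members by either denominator. The part of the red-cell miRNAs in the members' levels was not tested.

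**Figure D5:**
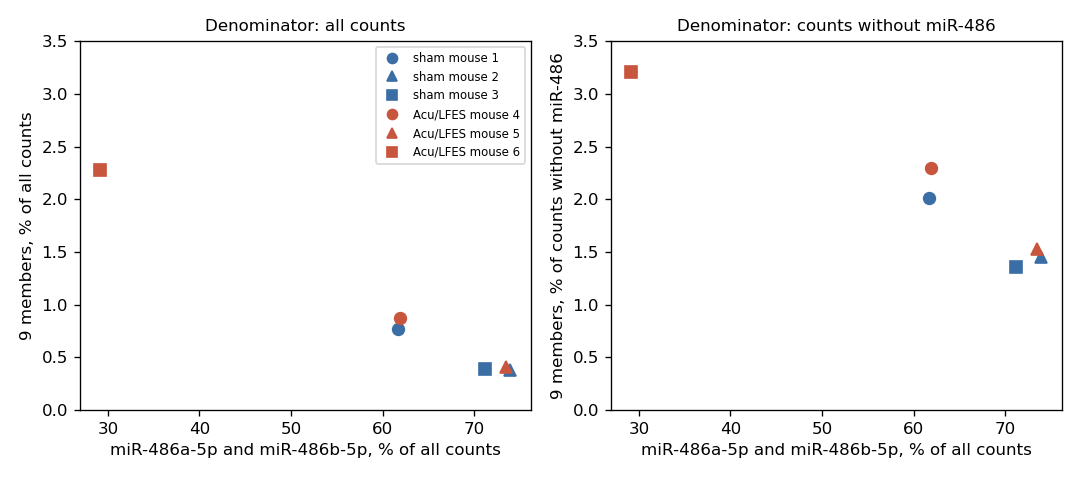
Percent of counts taken by the 9 members (y axes) against the percent of all counts taken by miR-486a-5p and miR-486b-5p (x axes), with all counts (left) or counts without miR-486 (right) as denominator of the y axis and mice as points. Mouse 6, with 29.2% on miR-486, has the highest share in both panels, at 2.27% and 3.21%.

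miRNAs of other cells were present in every library. The summed level of the endothelial miR-126a-3p and miR-126a-5p was 2151 to 2589 CPM in sham mice and 1487 to 2171 CPM in Acu/LFES mice. miR-126a-5p was lower in each Acu/LFES mouse, at 1302 to 1737 CPM against 1923 to 2148 CPM (log2 fold change -0.41, SE 0.22, edgeR, Benjamini-Hochberg adjusted p = 0.568). Groups apart in this direction were found for 8.11% of all miRNAs tested. For miR-126a-3p the groups overlapped (log2 fold change -0.12, SE 0.42). The cell source of the members' reads was not tested. The 4 white-cell and platelet markers summed to 6278 to 7325 and 4775 to 6816 CPM, the 3 muscle markers to 10092 to 11258 and 7475 to 12429 CPM, and the liver marker miR-122-5p was at 7325 to 20828 and 1693 to 15312 CPM. The 5 red-cell markers, with both miR-486 rows counted, took 61.8 to 74.1% of counts in sham mice and 29.4 to 73.6% in Acu/LFES mice. Among them miR-144-3p had only 4 counts in all, with 0 in each sham mouse and in Acu/LFES mouse 5.

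Across the 6 mice the 3p members varied together to different degrees. Pearson's r between their log2 CPM was highest for miR-23a-3p with miR-24-3p, at 0.87, and lowest for miR-23b-3p with miR-27b-3p, at 0.31, although the latter come from a single transcript. Outside the members, the miRNAs whose level was most like that of miR-24-3p among 147 with at least 10 counts in every library were miR-382-5p (r = 0.93), miR-203-3p (0.88), miR-199a-3p and miR-199b-3p (0.84, listed with equal counts) and miR-205-5p (0.80). Near the other end, miR-486a-5p and miR-486b-5p both had r = -0.96, at ranks 145 and 146 of 147. These values describe 6 mice that share one scaling, and they were picked from among the highest or lowest of many.

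The target sites through which these miRNAs are known to act were located in the longest annotated 3′-UTRs of 8 genes of muscle breakdown and growth, by GENCODE M21 on GRCm38. The motifs, read on the transcript's strand, were AATGTGA for miR-23, ACTGTGA for miR-27 and CTGAGCC for miR-24, each the reverse complement of the seed. miR-23 had 8 matches in 5 of the genes, miR-27 had 5 matches in 5, and miR-24 had 0. The sites are shown for the genes to which miR-23 and miR-27 are most often linked, in DNA letters with the match in capitals.
Fbxo32, first miR-23 match: aaatttacaAATGTGAattccacat
Fbxo32, second miR-23 match: tctgtttacAATGTGAaaatgttgt
Trim63, miR-23 match: tgtttttaaAATGTGAtttttgtat
Mstn, miR-27 match: aatttcgaaACTGTGAattcaagca
Foxo1, miR-27 match: ttttgtaatACTGTGAtggtctcaa
The matches lie at chr15:58181288-58181294 and chr15:58181095-58181101 on the minus strand in Fbxo32, and on the plus strand at chr4:134329172-134329178 in Trim63, chr1:53066690-53066696 in Mstn and chr3:52347396-52347402 in Foxo1. Fbxo32 also holds a miR-27 match. Among 3′-UTRs within 20% of the same length, the miR-23 motif was found in 45.3% for Fbxo32, whose 3′-UTR has 5587 bases, but in 8.62% for Trim63, whose 3′-UTR has 714. The miR-27 motif was found in 20.7% of 3′-UTRs as long as that of Mstn and in 47.8% of those as long as that of Foxo1. The mRNAs themselves were not measured in these libraries.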

How the data were processed

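Small RNA libraries of serum exosomes from 3 sham and 3 Acu/LFES mice were sequenced. The table that the authors deposited gives unnormalized counts of reads for each mature miRNA in each mouse. The submitters' processing notes name bcl2fastq, cutadapt 1.6 and DESeq2 1.26.0. The aligner, the mismatches allowed and the miRNA annotation are not given in the sources used here, and they decide how reads of near-identical members were shared. Groups came from the sample titles. The titles do not say whether mice shared a cage or day, so p-values measure the spread between these 6 samples.

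Here the whole table was fitted in edgeR 4.0.16 (R 4.3.3) with TMM factors, its default filter on low counts and its quasi-likelihood test, with Benjamini-Hochberg adjustment over the 259 miRNAs that passed, of 954 with a count. The standard error was taken from the F statistic. Ratios used a pseudocount of 0.5 and exact permutation tests. DESeq2 1.42.0, 5 other scalings, 2 other filters, collapsed identical rows and each mouse left out were alternatives. Pooled values of rare members without each mouse, and counts over the 6 members only, were added after seeing the data. Intervals and the floor of 3 counts cover counting error only. No pair of libraries agreed within sampling noise. The miRNAs named are the members, their other arms, the listed markers and references and the 5 miRNAs most like miR-24-3p. The members and lists were chosen with earlier results of these data known. Sequences are from RefSeq (GRCm38.p6) and positions from GENCODE M21. Figures were drawn with matplotlib 3.10.9.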

Additional observations from a re-analysis of the deposited data

How the results depend on the processing

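By edgeR 0 members reached an adjusted p under 0.05 with any scaling or filter tried, in DESeq2, or with any mouse left out, while DESeq2 called 9 miRNAs in all where edgeR called 0. The number of members higher at an unadjusted p under 0.05, 1 with TMM factors, was 0 with upper-quartile factors (4.63% of all miRNAs) and with scaling to miR-103-3p (2.70%), for which the cause was not tested. It was 2 without a filter (4.09%) and from 0 to 4 with each mouse left out, but these fits, except that without mouse 6, also took in miR-27a-5p or miR-27b-5p, which are high in Acu/LFES mice. Over the 6 members tested with all mice it was 1 without a filter and 0 to 3 with each mouse left out. No fold change was called, so only sign and size can move. Of 148 comparisons of a fold change with an alternative, 147 kept their sign, and miR-24-2-5p, at -0.044 to 0.77 with each mouse left out, reversed without Acu/LFES mouse 5. The sizes moved by over 1.5 times, from 0.057 to 0.66 for miR-24-3p, 0.13 to 0.71 for miR-27a-3p, 0.24 to 0.71 for miR-23a-3p and 0.19 to 0.73 for miR-23b-3p. The log2 fold change of miR-27b-3p went from 0.57 to 1.32 over the other alternatives and from 0.51 to 0.81 with each mouse left out, with adjusted p from 0.247 to 0.995. Without a filter the median of all miRNAs was 0.68 on the log2 scale, so the members' median of 0.49 lay below it.

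Ratios near 0 changed sign when a mouse was left out. The difference between the groups in log2 ratio went from -0.24 to 0.32 for miR-23a-3p over miR-23b-3p, from -0.58 to 0.028 for miR-27a-3p over miR-27b-3p, from -0.051 to 0.45 for miR-23a-3p over miR-27a-3p, from -0.45 to 0.22 for miR-23b-3p over miR-27b-3p, from -0.24 to 0.064 for miR-24-3p over both miR-23 forms, from -0.63 to 0.70 for miR-24-3p over miR-24-2-5p and from -0.60 to 0.28 for miR-451a over miR-23a-3p. With a pseudocount of 1 the ratio of miR-24-3p to miR-24-2-5p reversed to 0.0098. No paired analysis was possible because the mouse numbers 1 to 6 are not shared between the groups. At 3 counts a miRNA stood at 9.91 CPM in sham mouse 3 and at 1.80 CPM in Acu/LFES mouse 4, which limits what can be said of the 5p arms.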

Other observations

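The other products of the same loci were rare. miR-23a-5p had 0 counts in each sham mouse and 1, 1 and 5 counts in Acu/LFES mice 4, 5 and 6. miR-24-1-5p, the 5p arm of the second miR-24 hairpin, had 9 counts in mouse 6 and 0 in the other mice, against 165 counts over all mice for miR-24-2-5p of the first cluster. It shares the seed of miR-24-2-5p and differs from it at 5 of the first 22 positions.
miR-24-1-5p: gUGCCUACugagcugauaucagu
miR-3074-5p is annotated on the strand opposite both miR-24 hairpins and is complementary to miR-24-3p over 20 bases.
miR-3074-5p: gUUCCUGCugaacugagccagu
It had 6, 0 and 1 counts under sham treatment, against 54, 15 and 12 under Acu/LFES, or 8.65, 0 and 3.30 CPM against 32.3, 31.2 and 10.95 CPM. All Acu/LFES mice were above all sham mice, as for 8.88% of the miRNAs tested, but mouse 6 was close to the level that 3 counts give in sham mouse 3, 9.91 CPM. The adjusted p was 0.565 by edgeR with Benjamini-Hochberg adjustment, and the miRNA passed the filter on low counts only through the Acu/LFES mice. The protocol named in the labels does not say how strand was used in the counting.

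Of 6 other miRNAs linked to muscle atrophy or growth signalling, miR-486a-5p among them, 5 had enough counts to be tested. edgeR gave 0 of these an unadjusted p under 0.05. miR-133a-3p, which is specific to muscle, was at 6385 ± 435 CPM under sham treatment, against 6203 ± 1633 CPM under Acu/LFES (SD, n = 3 each), and miR-1a-3p at 3459 ± 208 and 3431 ± 1593 CPM. miR-206-3p, which is made in skeletal muscle, had a log2 fold change of -0.77 with a standard error of 0.51, and sham mouse 3, at 1695 CPM, was the highest of the 6 mice. The fitted fold change was above 0 for 1 of the 5 and below 0 for 4, with a median of -0.04 on the log2 scale beside 0.05 for all miRNAs.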
